A study of Mus musculus with 16 samples.

Results

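The FET proteins and their partners are RNA binders that gather in nuclear bodies and cytoplasmic granules, and several of their human counterparts, like TDP-43, have been linked to amyotrophic lateral sclerosis (ALS). Here 9 such genes were followed in mouse CD8+ T cells after the gene of TDP-43, Tardbp, was targeted. They are the FET genes Ewsr1 and Taf15, the paraspeckle genes Nono, Sfpq and Pspc1, the nuclear matrix gene Matr3, and the stress granule genes Tia1, Tial1 and Atxn2. They were chosen by symbol in the GENCODE M21 annotation, 9 of 55536 annotated genes, and all 9 were among the 16650 genes with enough counts to be tested. Their 115 annotated transcripts, of which 55 were tested, and their 158 splicing nodes were taken with them.

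FET proteins carry a low-complexity N-terminal region and an RNA-recognition motif, and act in transcription and splicing. Nono, Sfpq and Pspc1 encode the DBHS proteins, which pair with each other and build paraspeckles on the long noncoding RNA Neat1. Tia1 and Tial1 encode related proteins that bind uridine-rich RNA, regulate splicing and translation, and nucleate stress granules, the cytoplasmic assemblies of stalled mRNA in which ataxin-2, the product of Atxn2, is also found.

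Transgenic OT-I T cells, whose receptor recognises SIINFEKL, a peptide of ovalbumin, received Cas9 by electroporation together with a scrambled guide (Control gRNA) or with 1 that targets Tardbp (Tardbp gRNA). Per the methods the donors were OT-I mice deficient in Rag1 or Rag2, and a single guide was used, so that each sample is a bulk population and not a clone. The share of edited cells was not measured here. From an immunoblot of pooled cells the study reported that TDP-43 was not made with the Tardbp guide. The cells were transferred into C57BL/6J mice, and all recipients of both groups received the peptide with agonist antibodies to OX40 and 4-1BB. Sorted CD8+ T cells of spleen and lymph nodes were collected at day 4 according to the labels (the methods state fewer days), and RNA was sequenced from 8 recipients in each group. The labels give no age, and the methods give only a range for all mice of the study. A column headed sex in the deposited sample sheet gives the letter M or F for each library. Both letters occur in both groups, but not in the same proportion.

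Estimated counts in annotated genes ran from 73649630 to 93893357 per Control gRNA library and from 56016533 to 94801105 per Tardbp gRNA library. Levels are given as CPM, counts per 1000000 counts of the TMM-scaled library. Tardbp itself was at 192 ± 13.3 CPM (SD, n = 8) in Control gRNA and 135 ± 11.3 in Tardbp gRNA, with no overlap between groups. The summed level of 6 CD8 T cell markers lay between 2603 and 3252 CPM in Control gRNA and between 3816 and 5019.9 CPM in Tardbp gRNA, while Cd4 reached at most 0.601 CPM. Other levels moved with the groups too. Of 24 proliferation genes 23 were lower and none higher in Tardbp gRNA (edgeR, adjusted p under 0.05), against 23.3% and 23.5% of all genes tested. Their median log2 fold change was -0.61, and that of all genes tested was 0.05. Summed markers of red cell precursors (6 genes, 5 of them over 1 CPM in any library) spanned 0.442 to 17.4 CPM in the Control gRNA libraries and 9.02 to 181 CPM in those of Tardbp gRNA, those of myeloid cells (4 of 5 genes) 14.8 to 35.1 and 19 to 79.1 CPM, those of B cells (4 of 4) 6.85 to 13.1 and 7.28 to 18.4 CPM, and those of NK cells (2 of 2) 0.457 to 2.999 and 0.972 to 3.88 CPM. The myeloid markers did not move alike: Lyz2 had means of 10.9 CPM in Control gRNA and 32.8 CPM in Tardbp gRNA. Itgam, at 8.35 and 5.64 CPM, was the only one of that list with a lower mean in Tardbp gRNA. Most of the B cell sum was Cd79b, at 7.23 and 9.03 CPM. Of the defining markers, Cd4 and Ms4a1 were at 0 in some libraries of both groups, and Alas2 had a median of 0 in Control gRNA. The deposited RNA concentration, given with no unit, spanned 34.9 to 197.1 for Control gRNA and 10.1 to 24.0 for Tardbp gRNA. The part of these differences in the results below was not tested, except that the RNA concentration was set as a covariate.

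At the gene level, 7 of the 9 RNA binders differed between Tardbp gRNA and Control gRNA (edgeR, adjusted p under 0.05, referred to as called), against 46.7% of all genes tested. Ewsr1, Taf15, Nono, Pspc1 and Matr3 were lower, and 23.3% of all genes were called lower. Tia1 and Atxn2 were higher, against 23.5% of all genes. The libraries of the groups did not overlap for the 5 genes that were lower, and overlapped for the other 4. Of all genes, 16.9% had no overlap. The median log2 fold change of the 9 genes was -0.31, and that of all genes tested was 0.05. In bulk RNA, fewer cells of a type and less RNA per cell cannot be told apart.

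**Figure D1:**
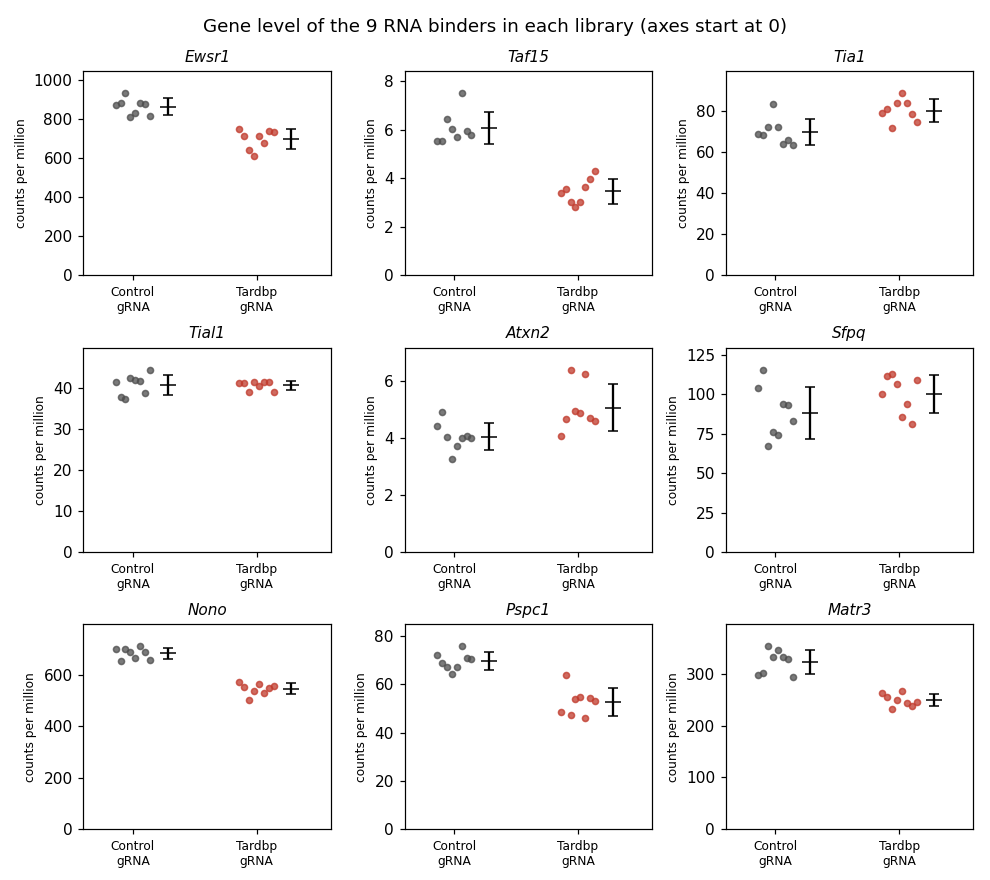
Level of each of the 9 genes in each library, in CPM on axes that start at 0. Points are libraries, and the bar beside them gives the mean and SD of 8 libraries; Ewsr1, Taf15, Nono, Pspc1 and Matr3 show no overlap between groups, and Tial1 has nearly equal means of 40.8 and 40.7.

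The 9 genes spanned a wide range of abundance. Per transcript length, scaled to a sum of 1000000 per library (TPM), the mean level in Control gRNA was 569 ± 33.1 (SD, n = 8) for Ewsr1, 448 ± 15.4 for Nono and 101 ± 9.55 for Matr3. Sfpq followed at 49.9 ± 8.56 TPM, Tia1 at 36.6 ± 4.50, Pspc1 at 28.4 ± 1.52 and Tial1 at 22.9 ± 2.92. Taf15 at 5.56 ± 0.637 TPM and Atxn2 at 2.03 ± 0.348 TPM were the scarcest. Neighbours in this order did not overlap across libraries, except that Sfpq overlapped Tia1, Tia1 overlapped Pspc1, and Pspc1 overlapped Tial1. The FET gene pair therefore held the most abundant gene of the set and its second scarcest, and the low counts of Taf15 and Atxn2, with means of 382 and 365 per library, limit what can be said of their transcripts. In Tardbp gRNA the mean levels were 453 TPM for Ewsr1, 344 for Nono, 78.8 for Matr3, 58.2 for Sfpq, 42.5 for Tia1, 24.6 for Tial1, 20.8 for Pspc1, 3.93 for Taf15 and 2.56 for Atxn2, so that Pspc1 and Tial1 stood in the opposite order by mean.

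Ewsr1 (ENSMUSG00000009079.16, chr11:5069689-5099266, minus strand, GRCm38), whose product EWS binds RNA through its RNA-recognition motif, fell by 0.31 on the log2 scale. In Control gRNA its level was 809 CPM in the lowest library, 876 at the median and 935 in the highest. In Tardbp gRNA it was 609.5, 715 and 750.2 CPM. All 8 Tardbp gRNA libraries lay under all 8 Control gRNA libraries (edgeR, log2 fold change -0.31 ± 0.04 SE, adjusted p = 1.93e-05).

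The lower level of Ewsr1 was seen in its leading transcript. Ewsr1-203, the main protein-coding transcript, was at 804 ± 62.2 CPM in Control gRNA and 507 ± 148 CPM in Tardbp gRNA, with no overlap (log2 fold change -0.67 ± 0.15 SE, adjusted p = 0.00454). Ewsr1-202, a shorter protein-coding transcript, was at 62.1 CPM in Control gRNA and 173 CPM in Tardbp gRNA, a difference that was not called (log2 fold change 1.48 ± 0.85 SE, adjusted p = 0.285). As a share of the gene's abundance per length, Ewsr1-203 held 78.4% at the lowest, 88.4% at the median and 98.1% at the highest in Control gRNA, and 43.2, 72.8 and 92.0% in Tardbp gRNA. Ewsr1-202 held 0, 7.45 and 19.4% in Control gRNA and 2.48, 23.0 and 51.8% in Tardbp gRNA. The Tardbp gRNA libraries were far more dispersed than the Control gRNA libraries, and 4 of 8 lay above every Control gRNA library for Ewsr1-202. The share differences of -19.3 ± 6.92 percentage points (SE) for Ewsr1-203 and 18.9 ± 6.85 for Ewsr1-202 did not pass the test of shares (limma, adjusted p = 0.147 and 0.151).

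The transcripts differ in 4 coding stretches that Ewsr1-203 has and Ewsr1-202 lacks. These are 31 bases at the end of an exon (chr11:5082253-5082283, minus strand, GRCm38), a 35-base exon (chr11:5079485-5079519), a 33-base exon (chr11:5078920-5078952) and 12 bases at the start of the next exon (chr11:5078580-5078591). Together they make up 111 bases, or 37 codons, and the annotated coding sequence is 1965 bases in Ewsr1-203 and 1854 bases in Ewsr1-202. The first and last stretch are shown because their borders are the alternative splice sites. They are read from the GENCODE M21 transcripts, 5′ to 3′, with 30 neighbouring bases that both transcripts share in lower case and the bases of Ewsr1-203 alone in capitals.

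Ewsr1 exon end, chr11:5082253-5082313: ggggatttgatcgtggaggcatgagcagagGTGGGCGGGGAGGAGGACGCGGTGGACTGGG
Ewsr1 exon start, chr11:5078550-5078591: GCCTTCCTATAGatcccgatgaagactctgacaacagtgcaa

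The deposited inclusion values pointed at the same 4 stretches. Psi was given by the authors from Whippet as 1 value per group, without a spread, so Psi differences are described and not tested. It is the estimated fraction of a gene's transcripts that include a node. For start and end nodes it is instead the estimated fraction that start or end at that node. A node is a piece of a gene between neighbouring splice, start or end sites. The 31-base alternative donor node stood at 0.897 for Control gRNA and 0.759 for Tardbp gRNA. For the 35-base core exon it was 0.885 and 0.741, for the 33-base core exon 0.977 and 0.816, and for the 12-base alternative acceptor node 0.990 and 0.885. These were the only 4 of 27 Ewsr1 nodes past 0.1 in Psi difference, and all 4 were lower in Tardbp gRNA. The constitutive part of the exon that ends with the 31-base stretch (150 bases) had 0.995 and 0.935. Both measures derive from the same reads and are not independent.

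**Figure D2:**
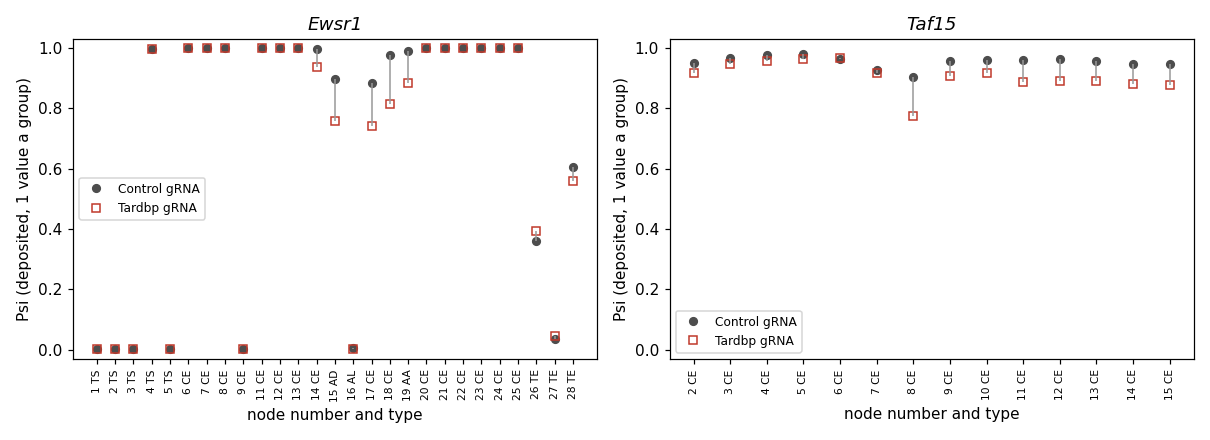
Deposited Psi of every node of Ewsr1 and Taf15 (CE core exon, AD alternative donor, AA alternative acceptor, AL alternative last exon, TS start, TE end), in order along the gene, with 1 value per group. In Ewsr1 the gap between groups is confined to nodes 14 to 19 and, at smaller size, the end nodes; in Taf15 it is widest at node 8, the 35-base exon.

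Taf15 (ENSMUSG00000020680.15, chr11:83473086-83506743, plus strand), the less abundant FET gene, whose product is also a TBP-associated factor, had the largest fall of the 9 genes. Its level was 5.52, 5.87 and 7.52 CPM (lowest, median, highest) in Control gRNA and 2.81, 3.47 and 4.29 CPM in Tardbp gRNA, with no overlap. The mean in Tardbp gRNA was 57.1% of that in Control gRNA (log2 fold change -0.81 ± 0.10 SE, adjusted p = 3.49e-06). Counts also depend on transcript length, and Taf15-204, described below, has 881 bases against 2068 in Taf15-201. Per length the means were 5.56 TPM in Control gRNA and 3.93 TPM in Tardbp gRNA, a smaller fall than in CPM. The part of transcript length in the fall was not tested.

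Within Taf15, the shares of the full-length and of a truncated transcript moved in opposite directions. Taf15-201, which codes for the protein in 16 exons and 1671 coding bases, was at 5.53 ± 0.764 CPM in Control gRNA and 2.24 ± 0.797 CPM in Tardbp gRNA (log2 fold change -1.30 ± 0.21 SE, adjusted p = 0.000434). Its share of the gene was 60.1, 82.5 and 84.8% in Control gRNA and 26.3, 42.3 and 65.1% in Tardbp gRNA (lowest, median, highest). The share was lower by 33.5 ± 6.55 percentage points (limma, -33.5, adjusted p = 0.00811). Taf15-204, annotated as a processed transcript with no coding sequence, has 7 exons and ends 168 bases into the intron that follows. It held 8.04, 15.3 and 35.8% in Control gRNA and 26.0, 50.2 and 73.1% in Tardbp gRNA, and this share rose by 31.2 ± 7.23 points (adjusted p = 0.0221). In absolute level Taf15-204 was at 0.534 CPM in Control gRNA and 1.07 CPM in Tardbp gRNA, which was not called (adjusted p = 0.0591). These were the only 2 of 55 transcript shares called among the 9 genes, against 1.14% of all transcripts tested for shares. They are complementary parts of 1 gene and count as a single change, and the transcripts rest on means of 41.8 to 444.5 counts per library in each group.

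**Figure D3:**
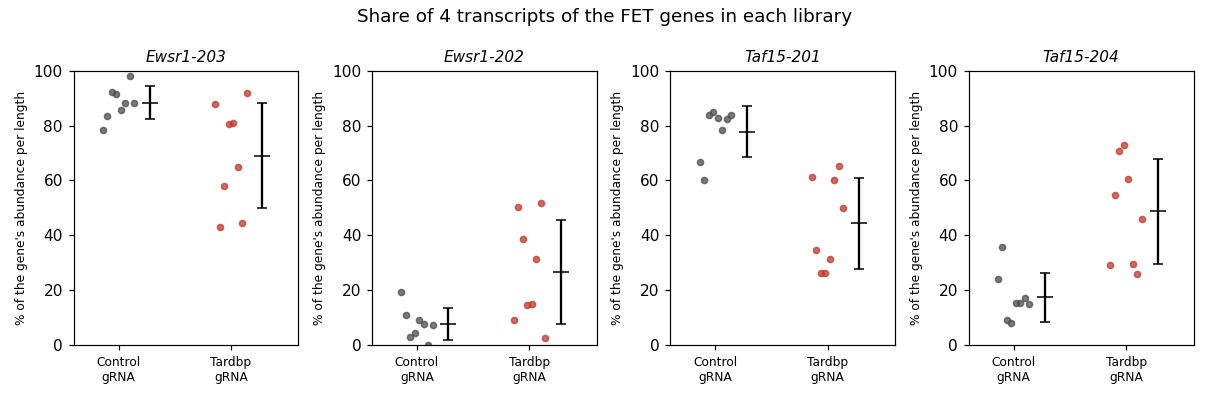
Share of 4 transcripts in the abundance per length of their gene, in percent, with a point for each library and the mean and SD of 8 libraries beside it. Ewsr1-202 spans 0 to 19.4% for Control gRNA and 2.48 to 51.8% for Tardbp gRNA, and the mean shares of Taf15-201 and Taf15-204 are 77.8 and 17.5% in Control gRNA and 44.4 and 48.7% in Tardbp gRNA.

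In the deposited Psi the exon just after the point where Taf15-204 ends moved most. This 35-base core exon (chr11:83497262-83497296, plus strand) went from 0.902 with the Control gRNA to 0.774 with the Tardbp gRNA. It was the only 1 of 14 Taf15 nodes past 0.1. The next exon, of 33 bases (chr11:83497894-83497926), had 0.957 and 0.907, and the last 5 exons listed had values between 0.945 and 0.964 for Control gRNA and between 0.876 and 0.890 for Tardbp gRNA. Upstream, the 121-base exon had 0.927 and 0.916.

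In both FET genes the Psi of a 35-base exon, which is followed by a 33-base exon, was thus lower in Tardbp gRNA by over 0.1. The exons match between the genes in length and in part in sequence: 26 of 35 bases (74.3%) and 19 of 33 bases (57.6%) were the same at the same position, counted without gaps. They are shown so that the pairs can be compared, 5′ to 3′ on the transcribed strand, with bases shared at the same position in capitals.

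Ewsr1 35-base exon, chr11:5079485-5079519: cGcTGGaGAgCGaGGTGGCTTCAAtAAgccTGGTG
Taf15 35-base exon, chr11:83497262-83497296: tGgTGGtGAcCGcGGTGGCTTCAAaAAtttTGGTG
Ewsr1 33-base exon, chr11:5078920-5078952: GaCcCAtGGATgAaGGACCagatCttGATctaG
Taf15 33-base exon, chr11:83497894-83497926: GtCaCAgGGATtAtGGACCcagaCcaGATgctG

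The Psi difference of Tardbp gRNA from Control gRNA at the 35-base exon was -0.14 in Ewsr1 and -0.13 in Taf15, and at the 33-base exon it was -0.16 in Ewsr1 and -0.05 in Taf15. Of the pair, only the Ewsr1 exons could be rebuilt per library from annotated transcripts.

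Of the paraspeckle genes, Nono and Pspc1 were lower and Sfpq was not called. Nono (ENSMUSG00000031311.17, chrX:101429318-101448591, plus strand) stood at 654, 688 and 711 CPM (lowest, median, highest) in Control gRNA and 503, 550.4 and 573 CPM in Tardbp gRNA. The groups lay well apart, and the log2 fold change was -0.33 ± 0.03 SE (adjusted p = 2.34e-07). Pspc1 (ENSMUSG00000021938.12, chr14:56720710-56778316, minus strand) stood at 64.2, 69.9 and 75.8 CPM in Control gRNA and 45.9, 53.7 and 64.0 CPM in Tardbp gRNA. The highest Tardbp gRNA library came close to the lowest Control gRNA library without passing it (log2 fold change -0.40 ± 0.06 SE, adjusted p = 2.91e-05). In libraries numbered 1 to 3 alone Pspc1 was at 76.5% of Control gRNA and was not called (adjusted p = 0.0873), and in libraries 4 to 8 it was at 75.1% and was called (adjusted p = 0.000262).

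Sfpq (ENSMUSG00000028820.13, chr4:127021324-127037013, plus strand), whose product pairs with those of Nono and Pspc1, ranged widely within each group. It stood at 67.1, 88.3 and 115.8 CPM in Control gRNA and at 81.5, 103 and 113 CPM in Tardbp gRNA. Every Tardbp gRNA library fell within the Control gRNA range, and the log2 fold change of 0.18 ± 0.10 SE was not called (adjusted p = 0.168). It was called without Control gRNA replicate 2 (0.24, adjusted p = 0.0457).

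Leading transcripts of these genes followed the gene, and the noncoding ones of Sfpq did not. Nono-201, at 687 and 529 CPM in Control gRNA and Tardbp gRNA, and Pspc1-201, at 70.5 and 51.6 CPM, were called lower without overlap. Sfpq-201, the only protein-coding Sfpq transcript in the annotation, was at 84.4 and 89.5 CPM and was not called (adjusted p = 0.722). Of the processed transcripts of Sfpq, Sfpq-206 rose from 4.33 to 6.55 CPM (log2 fold change 0.60 ± 0.14 SE, adjusted p = 0.00580), Sfpq-204 from 1.51 to 2.56 CPM (0.77 ± 0.16 SE, adjusted p = 0.00266) and Sfpq-202 from 0.120 to 0.412 CPM (1.78 ± 0.42 SE, adjusted p = 0.00775). Sfpq-202 lay near the floor in Control gRNA (0.0331 to 0.297 CPM). It passed the count filter through the Tardbp gRNA libraries (0.159 to 0.580 CPM), so its call is only a description. The summed level of all 5 noncoding Sfpq transcripts was 4.78 to 7.48 CPM for Control gRNA and 8.46 to 12.6 CPM in Tardbp gRNA, with no overlap. The share of Sfpq-201 in the gene was 78.4 ± 3.15% in Control gRNA and 70.7 ± 3.31% in Tardbp gRNA (difference -7.69 points, adjusted p = 0.0110), below the size set for a call. An annotated noncoding gene, Gm12940, lies over 3283 bases of Sfpq on the same strand, so that reads there could have been split by the counting. No Psi difference among 8 Sfpq, 10 Nono and 7 Pspc1 nodes passed 0.1, and the one farthest from 0 was -0.00958, in Pspc1.

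Matr3 (ENSMUSG00000037236.16, chr18:35562138-35593835, plus strand), whose product, a matrin, binds RNA and DNA in the nucleus, was lower in Tardbp gRNA. It was at 293, 330.4 and 353 CPM (lowest, median, highest) in Control gRNA and at 233, 248 and 267 CPM in Tardbp gRNA, without overlap (log2 fold change -0.37 ± 0.04 SE, adjusted p = 2.01e-06). Its main transcript Matr3-201 moved alike, at 306 and 225 CPM (log2 fold change -0.45 ± 0.055 SE, adjusted p = 3.52e-05). Matr3-215, a minor coding transcript, was also called lower (5.61 and 1.79 CPM, adjusted p = 0.0489), but 1 library carried its mean: Control gRNA replicate 8 was at 21.7 CPM and the other 7 at 1.55 to 6.45 CPM. Without that library its log2 fold change was -0.89 and it was not called (adjusted p = 0.151), and the call was lost in 12 of 16 fits that left out 1 library. The share of the retained-intron transcripts Matr3-209 and Matr3-216 was higher by 2.38 ± 0.434 and 1.43 ± 0.248 points (adjusted p = 0.00531 and 0.00383), both under the size set for a call. Psi of a 33-base alternative donor node near the start (chr18:35562260-35562292) was 0.640 for Control gRNA and 0.747 for Tardbp gRNA, the only 1 of 28 Matr3 nodes past 0.1. The annotated gene Gm28285 runs over 25571 bases of Matr3 on the same strand.

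Among the stress granule genes, Tia1 and Atxn2 were higher and Tial1 hardly moved. Tia1 (ENSMUSG00000071337.11, chr6:86404219-86433405, plus strand) was at 63.8, 68.6 and 83.8 CPM in Control gRNA and 71.98, 80.3 and 89.1 CPM in Tardbp gRNA. The ranges overlapped, and the log2 fold change was 0.20 ± 0.06 SE (adjusted p = 0.00835). Tial1 (ENSMUSG00000030846.15, chr7:128439777-128461717, minus strand) was at 37.5, 41.6 and 44.5 CPM in Control gRNA and 39.0, 41.2 and 41.5 CPM in Tardbp gRNA, with a log2 fold change of -0.00 ± 0.04 SE (adjusted p = 0.955). Atxn2 (ENSMUSG00000042605.16, chr5:121711337-121816493, plus strand) was at 3.26, 4.02 and 4.91 CPM in Control gRNA and 4.07, 4.79 and 6.40 CPM in Tardbp gRNA. Its log2 fold change was 0.32 ± 0.11 SE (adjusted p = 0.0186), and the call was lost without Control gRNA replicate 4 (adjusted p = 0.0607) or without Tardbp gRNA replicate 6 (adjusted p = 0.0698). With the RNA concentration as a covariate neither Tia1 (log2 fold change 0.14, adjusted p = 0.495) nor Atxn2 (0.50, adjusted p = 0.140) was called, while the 5 genes that were lower were called. The concentration does not overlap between the groups, so that this fit can hardly tell it from the group. In libraries numbered 1 to 3 alone Tia1 was at 111.1% and Atxn2 at 113.5% of Control gRNA, and neither was called (adjusted p = 0.456 and 0.715); in libraries 4 to 8 they were at 117.2% and 133.3%, and both were called (adjusted p = 0.0381 and 0.0153).

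Most of the higher level of Tia1 lay in transcripts not annotated as coding. Summed over its 5 protein-coding transcripts, Tia1 was at 52.6 ± 4.29 CPM in Control gRNA and 54.6 ± 5.06 CPM in Tardbp gRNA. Summed over its 23 other transcripts, it was at 17.4 ± 5.11 and 25.8 ± 2.64 CPM, with ranges that overlapped (9.82 to 27.4 and 22.2 to 28.6 CPM). The annotated gene Gm44790 runs over 6748 bases of Tia1 on the same strand. The retained-intron transcripts Tia1-213, at 2.62 and 4.90 CPM without overlap (log2 fold change 0.90 ± 0.21 SE, adjusted p = 0.00600), and Tia1-224, at 1.59 and 2.61 CPM (0.72 ± 0.17 SE, adjusted p = 0.00852), were the only Tia1 transcripts called. The leading transcript Tia1-202 held 32.8 ± 10.3% of the gene in Control gRNA and 29.0 ± 11.6% in Tardbp gRNA (adjusted p = 0.797). Tial1-202, a coding transcript of Tial1, fell from 22.6 to 16.3 CPM (log2 fold change -0.47 ± 0.15 SE, adjusted p = 0.0433), a call lost in 11 of 16 fits that left out 1 library (adjusted p up to 0.0919), while the leading Tial1-201 was at 9.25 and 11.7 CPM (adjusted p = 0.673). None of the Atxn2 transcripts was called, and Atxn2-201 held 55.95 ± 14.6% and 45.8 ± 12.9% of the gene (adjusted p = 0.490).

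In Psi, Tia1 and Tial1 passed 0.1 at start or end nodes, and Atxn2 at core exons. For Tia1, the 979-base end node chr6:86431202-86432180 had 0.631 in Control gRNA and 0.478 in Tardbp gRNA, while the 1220-base end node beyond it had 0.242 and 0.331. For Tial1, on the minus strand, the 349-base end node chr7:128442311-128442659 had 0.131 and 0.00262, and the 31-base end node that follows it had 0.766 and 0.890. At the start of Tial1, the 9-base node had 0.499 and 0.383 and the 23-base node next to it 0.258 and 0.410. In both genes the Tardbp gRNA value was thus lower at the nearer and higher at the farther of these end nodes. A 210-base core exon of Atxn2 (chr5:121781333-121781542) had the largest Psi difference of the 9 genes, with 0.895 in Control gRNA and 0.628 in Tardbp gRNA, and a 54-base core exon (chr5:121806222-121806275) had 0.154 and 0.274. In annotated transcripts rebuilt per library, the 210-base exon was included at 1 in Control gRNA and 0.972 ± 0.0779 in Tardbp gRNA (adjusted p = 0.790), far from the deposited group values. For the 54-base exon (0.736 and 0.632, adjusted p = 0.790) and the 33-base donor node of Matr3 (0.962 and 0.940, adjusted p = 0.0889) the rebuilt difference had the opposite direction to that in Psi.

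Over all 9 genes, 13 of 158 nodes (8.23%) differed by over 0.1 in Psi, 9 of them lower and 4 higher in Tardbp gRNA, against 4.7% of all nodes. Without start and end nodes, which leaves fewer than 158 nodes, 8 were past 0.1, against 1.35% of all such nodes. Nodes of a gene are not independent, and 4 of these 8 were the Ewsr1 stretches. Inclusion per library could be rebuilt from transcript counts for 27 of the 158 nodes, and none was called (limma, adjusted p under 0.05 and a difference over 0.1), against 0.237% of all nodes tested. At an unadjusted p under 0.05 there were 8 of 27 (29.6%), against 9.66% of all nodes tested, and 4 of the 8 are the Ewsr1 stretches, which go together in the same transcripts. For the 4 Ewsr1 stretches, rebuilt inclusion was 0.92 ± 0.06 in Control gRNA and 0.73 in Tardbp gRNA with an SD of 0.194 to 0.196, at an adjusted p of 0.316 to 0.318. The rebuilt difference was larger than that in Psi at each of the 4, and the Tardbp gRNA libraries were more dispersed than the Control gRNA libraries.

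By transcript, 12 of 55 tested passed (edgeR, adjusted p under 0.05), against 16.6% of all transcripts. The 7 that were lower, among them Matr3-215 and Tial1-202 with their unstable calls, were all protein coding. The 5 that were higher, among them Sfpq-202 near the floor, were all processed or retained-intron transcripts of Sfpq and Tia1. Of the 55, 22 were protein coding and 33 were not. How the calls of all transcripts divide by direction and type is not given here, so the split of these 12 is only a description. After the split was seen, the share of each gene in transcripts not annotated as protein coding was tested over 6161 genes. It was higher on average in Tardbp gRNA for all 9 genes, and in 73.2% of all genes tested. Of the 9, 4 passed (limma, adjusted p under 0.05), all higher, against 12.7% of all genes. The share was 22.2 ± 9.30% in Control gRNA and 55.6 ± 16.5% in Tardbp gRNA for Taf15 (adjusted p = 0.00347), 21.6 ± 3.15% and 29.3 ± 3.31% for Sfpq (adjusted p = 0.00502), 36.1 ± 6.45% and 45.9 ± 4.68% for Tia1 (adjusted p = 0.0300), and 3.35 ± 0.354% and 4.56 ± 0.556% for Nono (adjusted p = 0.00953). Of all genes, 750 were called higher and 35 lower, so a higher noncoding share was the general direction and not one of these genes in particular. The RNA concentration and the proliferation genes were lower in Tardbp gRNA too, and their part was not tested.

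**Figure D4:**
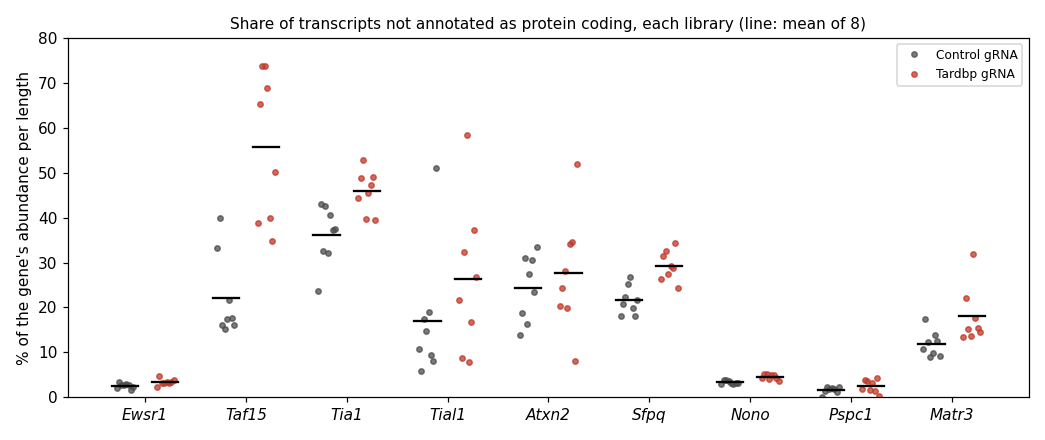
Percent of each gene's abundance per length in transcripts not annotated as protein coding, with a point per library and a line at the mean of 8. The mean is higher in Tardbp gRNA for all 9 genes, by 33.5 points in Taf15 and by less than 1 point in Ewsr1 and Pspc1.

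Genes known to work with these proteins were set beside them as lists. Of 16 paraspeckle partners, 10 were lower, 1 higher and 5 not called, with a median log2 fold change of -0.26, where 23.3% of all genes were called lower and 23.5% higher with a median of 0.05. Rbm14, an RNA binder needed for paraspeckles, was at 222 ± 12.3 CPM in Control gRNA and 140.2 ± 14.9 CPM in Tardbp gRNA (log2 fold change -0.66, adjusted p = 9.80e-08), and Smarca4, the ATPase of SWI/SNF chromatin remodelling complexes, was at 217 and 144 CPM (-0.59, adjusted p = 4.79e-07). Rbm4b was the only partner called higher (39.3 and 49.99 CPM, 0.35, adjusted p = 5.87e-05). Neat1, the RNA scaffold of paraspeckles, was at 24.7 ± 7.66 and 30.9 ± 6.16 CPM and was not called (log2 fold change 0.32 ± 0.17 SE, adjusted p = 0.139).

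Of 26 stress granule components, 17 were lower (23.3% of all genes), 1 higher (23.5% of all genes) and 8 not called, with a median log2 fold change of -0.30. G3bp1, a central scaffold of stress granules, fell from 1004 ± 57.2 to 638 ± 38.6 CPM (log2 fold change -0.65, adjusted p = 8.63e-09). Its partner Caprin1 fell from 561 to 361 CPM (-0.64, adjusted p = 1.09e-06). Atxn2l, the paralog of Atxn2, fell from 83.7 to 72.9 CPM (-0.20, adjusted p = 0.0198), the opposite direction to Atxn2. The largest falls were in the translation initiation factor Eif4g1, from 288 to 152 CPM (-0.92, adjusted p = 3.21e-07), and in Stau2, a double-stranded RNA binder at only 1.94 and 1.031 CPM (-0.91, adjusted p = 0.0171). Cirbp, a cold-inducible RNA binder, was the only component called higher, from 25.1 to 43.0 CPM (0.78, adjusted p = 0.000255).

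Of 26 other ALS-linked genes, 17 were lower and 4 higher, against the same 23.3% and 23.5% of all genes, and 5 were not called, with a median log2 fold change of -0.40. Vapb, which encodes a tether of the endoplasmic reticulum, fell from 24.0 to 13.6 CPM (-0.82, adjusted p = 0.000450). Chchd10, a mitochondrial protein gene, rose from 17.1 to 25.4 CPM (0.57, adjusted p = 0.00196), and the autophagy receptor gene Sqstm1 rose from 186 to 230 CPM (0.30, adjusted p = 7.63e-06). The lists and the 9 genes thus had negative medians, and none was farther from 0 than the proliferation list.

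**Figure D5:**
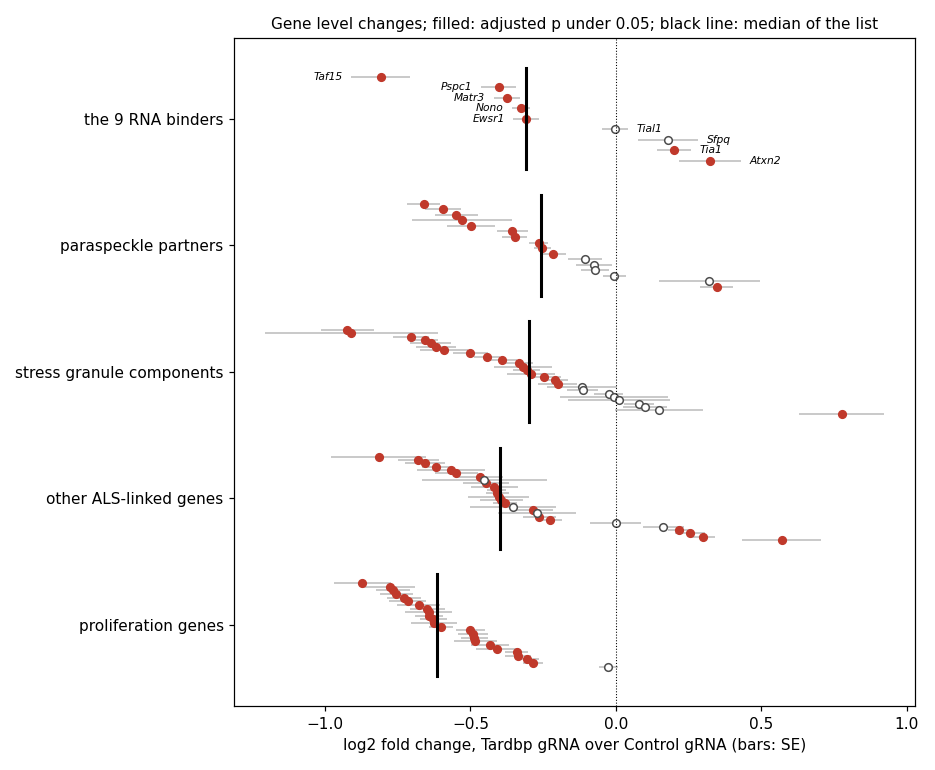
Log2 fold change of Tardbp gRNA over Control gRNA with its SE for the 9 genes and 4 lists, with called genes filled and a black line at the median of each list. The medians run from -0.26 for paraspeckle partners to -0.61 for proliferation genes, and in the 9 genes 5 values lie to the left, 3 to the right and Tial1 at 0.

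Libraries of a group also differed from each other, and the genes did not vary as 1 set. Over deviations of log2 CPM from the group means in 16 libraries, the most alike pairs were Ewsr1 and Nono (Pearson r = 0.652), Ewsr1 and Taf15 (0.583) and Matr3 and Nono (0.564). At the other end were Nono with Atxn2 (-0.64), Matr3 with Atxn2 (-0.55) and Matr3 with Sfpq (-0.53). Nono and Sfpq, whose products pair, stood at -0.21. Among all genes tested, the gene most like each was Ganab for Ewsr1 (0.914), Pak4 for Taf15 (0.842), Cse1l for Nono (0.922), Srf for Sfpq (0.941), St6galnac6 for Pspc1 (0.782), Mtr for Matr3 (0.891), Etfrf1 for Tia1 (0.871), Csf2rb for Tial1 (0.879) and Wnk1 for Atxn2 (0.788). These values share the libraries, their depth and normalization, and are descriptions.

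TDP-43 is known to bind stretches of alternating U and G, and the leading transcripts were searched for them. The letters GTGTGT or TGTGTG, which overlap each other, were looked for on the transcribed strand of the GENCODE M21 sequence of each leading transcript, counting every start position and leaving introns out. Pspc1-201 had 8 starts, Tia1-202 had 5 and Matr3-201 had 4. Taf15-201, Atxn2-201, Sfpq-201 and Nono-201 had 1 each, and Ewsr1-203 and Tial1-201 had 0. Among tested transcripts within 20% of its length, 79.0% had any for Ewsr1-203 and 62.1% for Tial1-201. The shares for the others ran from 70.7% for Taf15-201 to 97.2% for Matr3-201. Only the leading transcript of each gene, by share per length, was searched. For Tial1 that choice was close in Control gRNA, where Tial1-201 held 40.2% and Tial1-202 36.8% of the gene (46.1 and 24.4% in Tardbp gRNA).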

How the data were processed

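Per the labels, the authors aligned paired reads of SMART-Seq v4 and Nextera XT libraries with HISAT2 2.1.0 to mm10 (GRCm38) and estimated counts with StringTie 2.1.0, without normalization. The deposited estimated counts per gene and transcript were whole numbers and needed no rounding. Each read of a pair was counted, so counts are not independent molecules. Psi was deposited by the authors as a fraction per group from Whippet, and its columns, named by letter only, were assigned to groups from the study's text. The columns that hold the authors' own Psi differences and probabilities were not used. Of the columns in the count tables, 10 per file fit none of the samples and were left unread, and 0.0836 to 0.132% of counts were in lines that name no annotated gene and were left out. The kit does not mark strand, so reads shared with opposite-strand genes (Rhbdd3 at Ewsr1, Sh2b3 and Gm16552 at Atxn2, AC121821.3 at Matr3) cannot be told apart. On the same strand, Gm43571 and Gm42866 also lie over 3098 and 3304 bases of Atxn2, and Gm36989 over 2160 bases of Matr3.

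Genes and transcripts of GENCODE M21 entered edgeR 4.0.16 under R 4.3.3 (quasi-likelihood, TMM, filterByExpr with a minimum count of 10, minimum total 15 and proportion 0.7), two-sided, with group as the only term and all 16 libraries in the fit. CPM was TMM-scaled, log2 CPM used a prior count of 2, and TPM was computed from counts divided by transcript length. Transcript shares (count per length over the sum of the gene) and rebuilt node inclusion (mean spanning count over 50, nodes with the same value in every library left out) were tested with limma 3.58.1 where called values had an adjusted p below 0.05 and differed by more than 0.1. All p-values were adjusted by Benjamini-Hochberg over all features. DESeq2 1.42.0 was an alternative. The scripts were tested on simulated data. Named were all 9 genes, in each gene the transcript with the largest share and those called for their share, nodes past 0.1 in Psi, the most alike gene, and in each list the 2 largest called rises and falls with Neat1, G3bp1, Caprin1 and Atxn2l, except that some items are not reported here. Other transcripts and nodes, among them Ewsr1-202 and the called transcripts, were named after their values were seen. The genes and lists were chosen with earlier results of these data known. The 8 samples of a group are recipient mice.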

Additional observations from a re-analysis of the deposited data

Results flagged for a closer look

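Of 40 groups of 8 values looked at (9 gene levels and 11 transcript shares in both groups), 3 had a library whose gap to its nearest neighbour exceeded the 95% critical value of Dixon's test, as a part of the whole range, and chance flags about 1 in 20 groups. Control gRNA replicate 6 had the highest level of Taf15, 7.52 CPM, while the other 7 lay between 5.52 and 6.43 CPM. Control gRNA replicate 4 had the highest level of Tia1, 83.8 CPM, with the others at 63.8 to 72.4 CPM. In Control gRNA replicate 1, Pspc1-201 held 99.6% of Pspc1, with the others at 96.0 to 97.7%. Both Taf15 and Tia1 were called without the library concerned.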

How the results depend on the processing

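Of the 9 genes, 7 were called under DESeq2, RLE factors, total counts only, no filter, a minimum count of 100, the letter M or F as a covariate, the division of the library numbers as a block, and libraries 4 to 8 only. With the RNA concentration as a covariate 5 were called, and in libraries 1 to 3 only 4 (Tia1, Atxn2 and Pspc1 lost their calls), with 10.1% of all genes called there. Leaving out 1 library gave 6 to 8 called genes (Atxn2 was lost without Control gRNA replicate 4 or Tardbp gRNA replicate 6, and Sfpq gained without Control gRNA replicate 2), 10 to 13 called transcripts, 2 to 2 called shares, 0 to 0 called rebuilt nodes and 3 to 4 called noncoding shares. The library numbers did not pair the samples (2 of 8 pairs correlated over 0.1, and 5 of 16 libraries matched their own number best). With the replicate block 7 genes and 10 transcripts were called, but 0 shares: the differences of Taf15-201 and Taf15-204 were of the same size, at an adjusted p of 0.0507 and 0.0931 (limma). The count of nodes was 24 at a Psi difference over 0.05 (9.65% of all nodes), 1 over 0.2 (1.67%) and 8 without start and end nodes (1.35%). No called result changed its direction under these alternatives, and the cause of the lost calls was not tested. Depth limits Taf15 and Atxn2 most, and Psi has no replicate error. DESeq2 called 17 transcripts against 12, and with the replicate block 3 noncoding shares were called against 4. Except for libraries 1 to 3 and the Psi nodes, the percentage of all features called under each setting is not given here. These counts therefore show whether calls held, and not an excess over all features.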
